A study of Mus musculus with 3 samples.

Results

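The 10 CXC chemokine genes Cxcl1, Cxcl2, Cxcl3, Cxcl5, Cxcl9, Cxcl10, Cxcl11, Cxcl16, Pf4 and Ppbp were taken by symbol from 55536 annotated mouse genes, and all 10 were present in the tables. RNA was measured by total RNA sequencing after ribosomal RNA depletion, in the cytosolic fraction of macrophages grown from the bone marrow of C57BL/6J mice. The cells had received lipid A, the part of bacterial lipopolysaccharide that the receptor TLR4 recognises, at 100 ng/ml for 25 min, and 1 µg of RNA was the input to a library. All 3 libraries are labelled biological replicates of this single group. The labels tie them to a single donor record and do not say whether they came from separate cultures or animals, so the spread between them may be technical. No unstimulated library was analysed here, so the values are levels after lipid A and not inductions.

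CXC chemokines are small proteins that draw leukocytes along a gradient by binding G protein-coupled receptors. Those with a glutamate-leucine-arginine (ELR) triplet before the first cysteine of the CXC motif act on Cxcr2 and recruit neutrophils, whereas the interferon-type ligands act on Cxcr3 and recruit activated T cells and NK cells. In macrophages, TLR4 signalling through NF-κB switches on several ELR genes within minutes, and a later interferon loop can further raise the Cxcr3 ligands. Their mRNAs can carry AU-rich elements, to which decay factors such as Zfp36 (tristetraprolin) bind.

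The libraries held 52956907, 43547422 and 38608503 expected counts on gene rows in replicates 1, 2 and 3. A floor of 3 counts corresponds to 0.0566, 0.0689 and 0.0777 CPM (a counts-per-million scale). All 8 macrophage markers were at 29.0 TPM or more (transcripts-per-million, a scale corrected for transcript length) in every library, whereas 0 of 4 T and NK, 0 of 3 B, 0 of 4 dendritic and 0 of 4 stromal and endothelial markers reached 1 TPM in every library. Of 8 neutrophil markers 3 did so, and the summed level of that list was 29.1, 51.3 and 33.4 TPM. Replicate 2 stood apart in nuclear RNA, a comparison chosen after seeing the data: Malat1, a nuclear long noncoding RNA, was at 392, 1144 and 374 TPM, and Neat1, which scaffolds nuclear paraspeckles, at 32.4, 106.5 and 37.3 TPM. Protein-coding genes took 22.7, 22.9 and 29.8% of all TPM, which by the fixed sum of TPM raises coding genes in replicate 3. Spread and folds between libraries are therefore given below on counts scaled by TMM factors, while the TPM given per library carry this shift.

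The coding sequence around the CXC motif sorts the family and is shown for 6 genes. Windows run 5′ to 3′ in GENCODE M21 transcripts, with capitals for the 3 codons before the first cysteine of the motif and for both cysteine codons.
Cxcl1: gccaatGAGCTGCGCTGTcagTGCctgcag
Cxcl2: gccagtGAACTGCGCTGTcaaTGCctgaag
Cxcl3: gccagtGAGCTGCGCTGTcagTGCctgaac
Pf4: gatggaGATCTTAGCTGTgtgTGTgtgaag
Cxcl10: gcaaggACGGTCCGCTGCaacTGCatccat
Cxcl16: agtgtcGCTGGAAGTTGTtctTGTgatcgt
Cxcl1, Cxcl2, Cxcl3, Cxcl5 and Ppbp carried codons for the ELR triplet there, and the other 5 genes did not. Cxcl2 and Cxcl3 were the closest pair, with 89.7% identity over all columns of the coding alignment, gaps included. It was 75.7% for Cxcl1 and Cxcl2 and 72.7% for Cxcl1 and Cxcl3. Of the 31-base words of the main Cxcl2 transcript, 7.41% also occurred in Cxcl3, so reads there could be split between these genes. The main transcripts of Cxcl1, Cxcl10, Cxcl16, Pf4 and Ppbp shared none with transcripts of any other gene, read in the sense direction. Words on the opposite strand were not searched.

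On mm10, 6 of the genes lie within 146.6 kb at chr5:90759360-90905938, in which Cxcl15 is the other protein-coding gene. Cxcl9, Cxcl10 and Cxcl11 lie within 44.1 kb at chr5:92321347-92365485, on the minus strand, 1415 kb further along the chromosome. Cxcl16 lies alone on chromosome 11, at chr11:70453983-70459984 on the minus strand. The annotation classes Cxcl11 as a polymorphic pseudogene and the others as protein-coding.

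The RefSeq promoter table (GRCm38.p6) held 7 of the genes, and the 250 bases before the start are shown for the 4 in which the NF-κB (κB) consensus was found. Capitals mark κB matches and, in Cxcl10, also the match to the interferon-stimulated response element (ISRE). Each is given on the gene's own strand.
Cxcl1, chr5:90890995-90891244, plus strand: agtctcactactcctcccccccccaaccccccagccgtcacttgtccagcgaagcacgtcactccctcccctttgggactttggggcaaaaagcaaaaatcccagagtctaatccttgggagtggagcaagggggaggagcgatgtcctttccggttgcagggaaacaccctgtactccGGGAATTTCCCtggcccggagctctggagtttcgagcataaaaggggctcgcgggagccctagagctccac
Cxcl2, chr5:90903649-90903898, plus strand: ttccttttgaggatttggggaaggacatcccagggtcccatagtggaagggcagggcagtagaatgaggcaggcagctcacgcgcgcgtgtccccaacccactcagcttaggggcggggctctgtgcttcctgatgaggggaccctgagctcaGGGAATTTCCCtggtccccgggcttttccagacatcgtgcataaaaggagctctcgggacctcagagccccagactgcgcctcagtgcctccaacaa
Cxcl3, chr5:90785851-90786100, plus strand: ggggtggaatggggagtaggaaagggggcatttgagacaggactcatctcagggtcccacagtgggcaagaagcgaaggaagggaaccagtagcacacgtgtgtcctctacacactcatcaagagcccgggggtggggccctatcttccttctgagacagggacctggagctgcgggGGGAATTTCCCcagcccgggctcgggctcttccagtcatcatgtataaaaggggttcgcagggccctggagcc
Cxcl10, chr5:92348890-92349139, minus strand: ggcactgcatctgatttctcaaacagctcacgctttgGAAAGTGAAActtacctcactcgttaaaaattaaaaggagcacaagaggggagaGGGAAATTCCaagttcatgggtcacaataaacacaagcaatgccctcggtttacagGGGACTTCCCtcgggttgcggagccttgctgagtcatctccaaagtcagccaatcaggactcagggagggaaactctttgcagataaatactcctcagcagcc
Cxcl1, Cxcl2 and Cxcl3 held the same 11 bases, GGGAATTTCCC, which match κB on both strands in overlap and begin 71, 97 and 73 bases before the start. Cxcl10 held κB matches 159 and 103 bases before the start, an ISRE match on the opposite strand at 213 bases and an AP-1 match, TGAGTCA, at 74 bases, left in lower case. Cxcl9, Pf4 and Ppbp held neither κB nor ISRE. Ppbp also held an AP-1 match, at 204 bases. The TATA box letters were found in Cxcl3 at 30 bases, in Cxcl9 at 195 bases and in Ppbp at 30 and 8 bases. All distances are from the RefSeq start. The Cxcl2 window ends at chr5:90903898, past the GENCODE start of the gene at chr5:90903871, so its distance depends on the start used. Both strands were searched for κB, ISRE (TTTCNNTTTC) and AP-1 (TGANTCA), and the gene's strand for the TATA box as TATAAA. Among all 32851 RefSeq promoter windows of the same length, 3.90% held κB, 2.98% ISRE, 6.75% AP-1 and 7.59% TATA. Such matches are letters in a window and were not tested as binding sites.

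AU-rich pentamers in the 3′ UTR set the ELR genes Cxcl1 and Cxcl2 highest in the family. The 30-base stretches with most pentamers are shown from the GENCODE M21 transcripts, with each ATTTA in capitals.
Cxcl1: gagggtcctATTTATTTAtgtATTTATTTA
Cxcl2: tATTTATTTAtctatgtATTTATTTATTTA
Cxcl3: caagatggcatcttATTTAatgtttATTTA
Overlapping copies were counted. Cxcl2 held 11 ATTTA pentamers in 734 bases, Cxcl1 held 7 in 592 bases, and Cxcl3 and Cxcl5 held 5 each, whereas Cxcl9 held 3, Cxcl10 and Cxcl16 held 2, and Cxcl11, Pf4 and Ppbp held 1. Among 9011 detected coding genes with a 3′ UTR, 66.6% had at least 1 pentamer and 19.9% had 5 or more. The longer element TATTTAT occurred 7 times in Cxcl2, 6 times in Cxcl1, 2 times in Cxcl3 and 1 time in Cxcl5 (overlaps included), and in 27.6% of those detected genes. The plot of motif positions shows both maps.

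**Figure D1:**
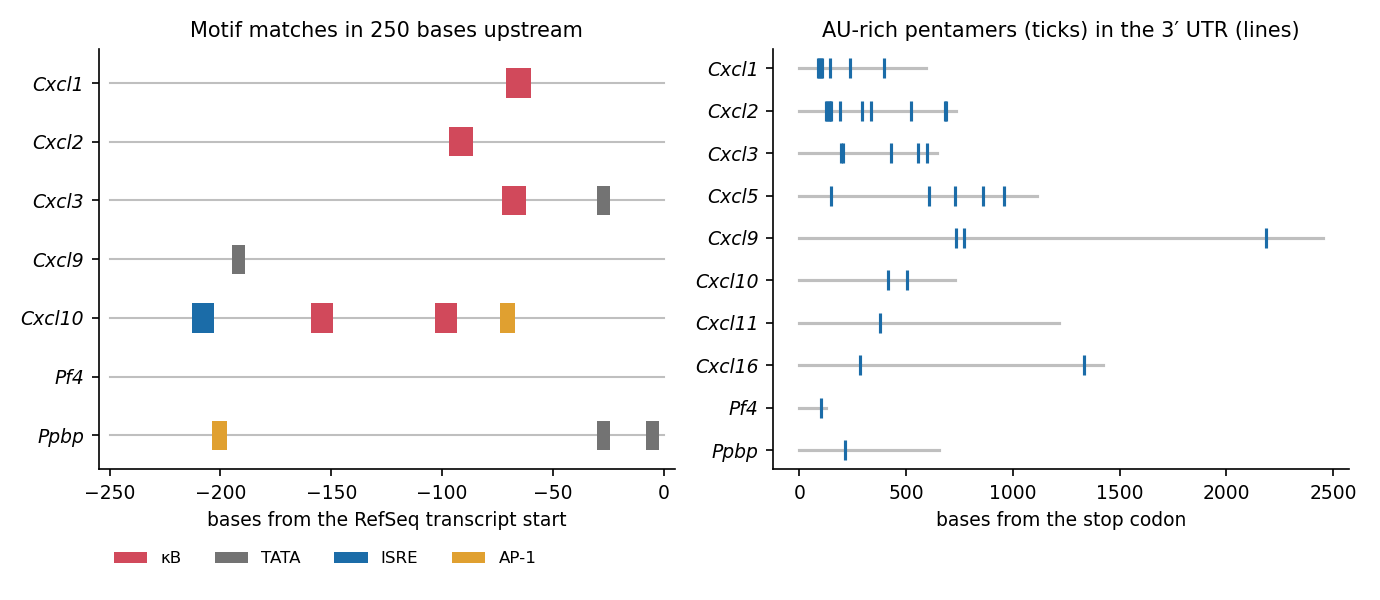
Left, matches to κB, ISRE, AP-1 and TATA in the 250 bases upstream of 7 genes, drawn to scale in bases from the RefSeq transcript start. Right, AU-rich pentamers (ticks) along the 3′ UTR (lines) of all 10 genes in bases from the stop codon, with 11 in Cxcl2, 7 in Cxcl1 and 1 in Pf4.

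After lipid A, 5 of the 10 genes were detected, meaning 1 TPM or more in every library: Pf4, Cxcl2, Cxcl1, Cxcl16 and Cxcl10. The other 5 were below 1 TPM in every library. By the same rule 41.3% of 22015 protein-coding nuclear genes were detected (9084 genes), so the count by itself is close to that background. The plot of levels shows the division, with no value between 0.93 and 7.06 TPM. These are alignment-based values, and the library that was highest in TPM depended on the quantification. In alignment-free TPM Cxcl1 was at 11.0, 4.12 and 10.5, Cxcl16 at 8.96, 5.62 and 8.32, and Pf4 at 64.0, 51.7 and 40.7, so replicate 1 was the highest for all 3 genes there. It was not the highest in alignment-free estimated counts on coding transcripts. Those were 28.6, 14.1 and 46.2 CPM for Cxcl1, 64.6, 57.0 and 71.8 CPM for Cxcl16, and 86.4, 100 and 94.7 CPM for Pf4.

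**Figure D2:**
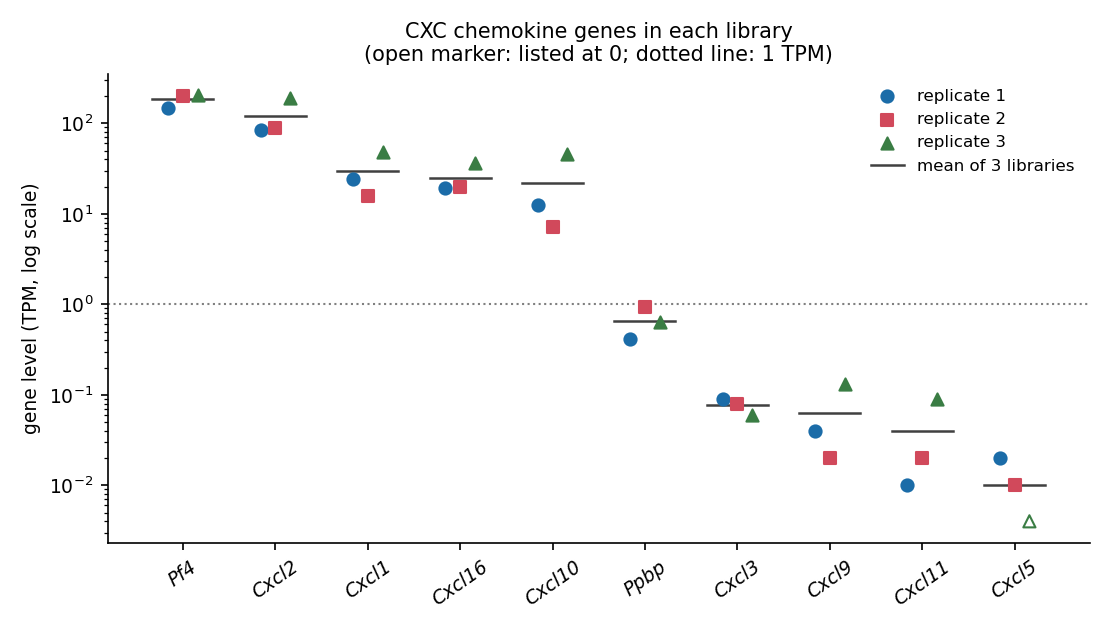
Gene level in TPM on a log axis for the 10 CXC chemokine genes in each of the 3 libraries, ordered by mean, with a bar at the mean and an open marker for the value listed at 0. Pf4, Cxcl2, Cxcl1, Cxcl16 and Cxcl10 lie between 7.06 and 206 TPM, and the other 5 genes lie below the dotted line at 1 TPM.

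Among the ELR ligands, Cxcl2 (MIP-2, a neutrophil attractant) was the most abundant, at 83.9, 89.1 and 188 TPM in replicates 1, 2 and 3, a mean of 120.4 ± 58.8 TPM (SD, n = 3). Cxcl1 (KC, which also acts through Cxcr2) was at 24.0, 15.7 and 48.6 TPM, a mean of 29.4 ± 17.1 TPM (SD, n = 3). Both genes were highest in replicate 3 in these alignment-based values, and their ranges did not overlap. Within each library Cxcl2 exceeded Cxcl1, at 3.50, 5.68 and 3.87 times its TPM. Cxcl2 stood above 98.2, 98.3 and 99.0% of protein-coding genes by TPM, and its level was 0.607, 0.657 and 0.538 times that of Tnf, the cytokine gene used for comparison.

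Cxcl3, the third ELR gene with the shared promoter motif, was close to the floor, with 8, 9 and 3 expected counts, or 0.09, 0.08 and 0.06 TPM. Its exact 95% Poisson intervals were 3.45 to 15.8, 4.12 to 17.1 and 0.619 to 8.77 counts, against 8173, 7245 and 10384 counts for Cxcl2. Cxcl3 thus lay far below Cxcl2 in each library. Both hold the same 11 promoter bases, and the part of the promoters in these levels was not tested. The 31-base words it shares with Cxcl2 made up 8.11% of those in the main Cxcl3 transcript. Cxcl5 (LIX, a Cxcr2 ligand best known from epithelial and stromal cells) had 3, 1 and 0 counts, and in replicate 3 the upper end of the exact interval for 0 counts was 3.69 counts, or 0.0955 CPM. These intervals and floors cover counting error only.

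Ppbp, which encodes the precursor of the platelet chemokine NAP-2, had 37, 65 and 33 counts, or 0.41, 0.93 and 0.64 TPM. It was highest in replicate 2 and below 1 TPM in every library. Its neighbour Pf4 (platelet factor 4, also called Cxcl4, a heparin-binding granule protein of platelets) was the most abundant of the 10 genes, at 146, 200 and 206 TPM, a mean of 184 ± 33.2 TPM (SD, n = 3). Pf4 stood above 99.06, 99.39 and 99.11% of protein-coding genes and was at 356, 215 and 322 times the TPM of Ppbp. Pf4 was above Cxcl2 within every library, although the ranges of these genes over the libraries overlapped.

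Beside this, 0 of 9 megakaryocyte and platelet markers reached 1 TPM in every library. Their summed level was 0.78, 1.61 and 1.30 TPM, and Itga2b, the platelet integrin chain, was at 0.05, 0.37 and 0.14 TPM. The summed level of the list thus lay below 2 TPM where Pf4 was at 146 TPM or more, and it was highest in replicate 2, as Ppbp and the neutrophil list were. The part of these cells in the level of Ppbp was not tested. In bulk RNA, fewer cells of a type and less RNA per cell cannot be told apart.

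Of the interferon-type Cxcr3 ligands, only Cxcl10 (IP-10) was detected, at 12.6, 7.06 and 46.3 TPM, a mean of 22.0 ± 21.3 TPM (SD, n = 3). Replicate 3 was far above the other libraries, and without it the mean was 9.82 TPM. Cxcl9 (MIG) had 12, 5 and 21 counts, and Cxcl11 (I-TAC) had 1, 4 and 7 counts, all below 0.2 TPM. Cxcl10 was at 314, 353 and 356 times the TPM of Cxcl9, a ratio that rests on those few Cxcl9 counts. Ifnb1, the interferon gene of the later loop, had 2, 2 and 3 counts. Art3 overlaps Cxcl10 and Cxcl11 on the opposite strand, a comparison chosen after seeing the data, and carried 11, 3 and 8 counts.

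Cxcl16, a ligand of Cxcr6 that is made as a transmembrane protein and also acts as a scavenger receptor, was at 19.1, 19.6 and 36.8 TPM, a mean of 25.1 ± 10.1 TPM (SD, n = 3). Replicates 1 and 2 were close and replicate 3 was higher in TPM, and in counts scaled by TMM factors replicate 3 was at 1.31 times replicate 1. Its range overlapped those of Cxcl1 and Cxcl10, so Cxcl16 could not be ordered against either beyond that spread. Cxcl1 was above Cxcl10 within every library, although the ranges of these genes over the libraries overlapped as well. The sheddases that can release Cxcl16 were also expressed, with Adam10 at 22.1 ± 4.10 TPM and Adam17 at 26.1 ± 5.48 TPM (SD, n = 3 each). Zmynd15 overlaps Cxcl16 by 552 bases on the opposite strand, also looked up after seeing the data, and had 161, 150 and 146 counts.

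In the order of mean levels, 3 of the 9 pairs of neighbours had ranges that did not overlap: Cxcl2 above Cxcl1, Cxcl10 above Ppbp, and Ppbp above Cxcl3. Summed over the 10 genes the level was 286, 333 and 527 TPM, a mean of 382 ± 128 TPM (SD, n = 3), or 0.126, 0.145 and 0.177% of the TPM of protein-coding genes. Pf4 made up 50.1% of this sum on average, Cxcl2 30.6%, Cxcl1 7.44%, Cxcl16 6.51%, Cxcl10 5.10% and Ppbp 0.181%. Pf4 held 39.1% of the sum in replicate 3, where Cxcl2 held 35.7%, and 60.2% in replicate 2, where Cxcl2 held 26.8%.

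Of the other CXC ligand genes, 0 of 5 were detected. Cxcl13, Cxcl15 and Cxcl17 had 0 counts in every library of the alignment-based tables. The stromal chemokine Cxcl12 had 3, 2 and 4 counts, and Cxcl14 had 6, 21 and 10 counts. In the alignment-free tables Cxcl15 had 1.04, 4.42 and 1.00 estimated counts and Cxcl17 had 0, 2.00 and 0. Of 8 receptor genes 2 were detected. Cxcr4, the receptor for Cxcl12, was at 45.3, 28.1 and 54.4 TPM, and Cxcr3, the receptor for Cxcl9, Cxcl10 and Cxcl11, was at 1.97, 1.71 and 3.02 TPM. Cxcr2, the receptor of the ELR ligands, had 15, 18 and 13 counts, and Cxcr6, the receptor of Cxcl16, had 3, 23 and 7 counts. Thus the receptors for the most abundant ELR ligands and for Cxcl16 were below 0.2 TPM in all 3 libraries. All 6 mRNA decay genes were detected, with Zfp36 at 399.7 ± 95.4 TPM (SD, n = 3). The late response genes Il6, Il12b and Nos2 were each below 1 TPM in every library (0 of 3 detected).

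On counts scaled by TMM factors, Cxcl10 was the member that varied most between libraries, at 22.2, 12.1 and 62.4 CPM. Its SD of log2 CPM was 1.19, larger than that of 99.7% of the 10348 genes that averaged 100 counts or more. Without replicate 3 it was 0.618. Cxcl1 was at 38.7, 25.8 and 57.0 CPM (SD 0.57, above 97.3% of those genes), and Cxcl2 at 157, 168 and 263 CPM (SD 0.40, above 94.3%). Cxcl16 and Pf4 varied less, with SDs of 0.22 and 0.21. The spread of Cxcl2 and Cxcl16 rested on replicate 3, without which their SDs were 0.0670 and 0.00429, and that of Pf4 on replicate 2, without which it was 0.0883. The median SD over these 5 genes was 0.403, and 0.107 over the 10348 genes. Over the 6 members kept by the count filter, which adds Ppbp at 0.55, the median was 0.475, and 0.127 over all 12744 genes kept.

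With 1 library on each side of a ratio there is no p-value, and a gene is counted when its scaled CPM differs by more than 2-fold. Replicate 3 was over 2-fold above replicate 2 in 2 of the 5 members, at 5.14-fold for Cxcl10 (log2 2.36) and 2.21-fold for Cxcl1 (log2 1.14), beside 0.821% of 10348 genes. Replicate 3 was over 2-fold above replicate 1 in 1 of the 5, Cxcl10 at 2.81-fold (log2 1.49), beside 0.348% of genes. The other 4 directions held 0 of the 5 members, beside 1.35% (replicate 2 above replicate 1), 0.145% (replicate 2 below replicate 1), 0.174% (replicate 3 below replicate 1) and 2.02% (replicate 3 below replicate 2) of genes. Cxcl2 was 1.57-fold higher in replicate 3 than in replicate 2 and 1.67-fold higher than in replicate 1, both short of the limit. For Pf4 the ratio of replicate 3 to replicate 2 was 0.826, in the other direction. Leaving out replicate 3 left 0 members over the limit, and leaving out replicate 2 left 1, Cxcl10.

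Genes of the NF-κB and interferon comparison lists also differed between libraries. Of 6 NF-κB comparison genes, Nfkbia (the inhibitor IκBα), Tnf and Il1b were over 2-fold above in replicate 3 relative to replicate 2, at 2.05-fold, 2.08-fold and 2.60-fold. Of 6 interferon comparison genes with enough counts, Ifit2, Isg15 and Irf1 were, at 2.13-fold, 2.25-fold and 2.64-fold. None of these 12 genes reached the 5.14-fold of Cxcl10. Relative to replicate 1, replicate 3 was over 2-fold above in 1 of the 6 NF-κB genes, Il1b at 2.29-fold, and in 1 of the 6 interferon genes, Irf1 at 2.25-fold. In that pair Ifit1 was at 1.16 and Irf7 at 0.944 times its level in replicate 1. The genes nearest to each member in their pattern over the 3 libraries, by Euclidean distance of centred log2 CPM, were Isg15, Gpr141 and Gbp4 for Cxcl1 (0.0231 to 0.0357), and Gm8325, Filip1l and Cdc42ep2 for Cxcl2 (0.00723 to 0.0531). For Cxcl10 they were Ifit1bl1, Socs3 and Rpl17-ps8, at larger distances of 0.167, 0.374 and 0.527. For Cxcl16 they were Sod2, Tnfrsf14 and 4930430E12Rik, and for Pf4 Ppox, Fmnl2 and Rrm1. With 3 libraries many genes can lie close by such a measure. Replicate 2, where Cxcl10 and Cxcl1 were lowest, was the library with the highest Malat1 and Neat1, and the part of this in the spread was not tested. The ratio of replicate 3 to replicate 1, which leaves that library out, was 2.81 for Cxcl10 and 1.47 for Cxcl1.

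**Figure D3:**
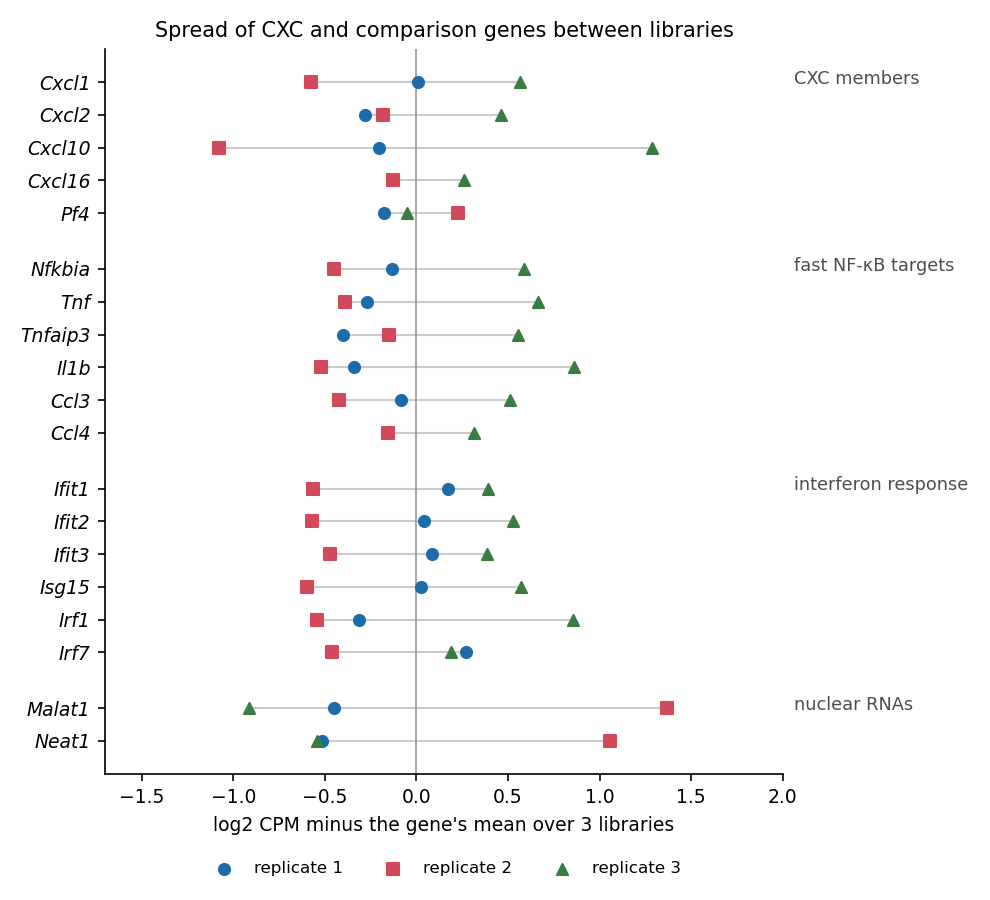
Log2 CPM minus the gene's mean over the 3 libraries, one row per gene, for 5 CXC members, 6 NF-κB targets, 6 interferon response genes and 2 nuclear RNAs. Cxcl10 spans the widest range of the 17 response and CXC genes, and Malat1 and Neat1 lie highest in replicate 2.

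The retained-intron share is the percent of a gene's TPM on transcripts annotated as retained_intron, from the tables made without alignment. For Cxcl2 it was 18.7, 31.6 and 9.30%, a mean of 19.9 ± 11.2% (SD, n = 3), and for Cxcl1 it was 8.33, 16.4 and 3.99%, a mean of 9.59 ± 6.32% (SD, n = 3). Both were highest in replicate 2 and lowest in replicate 3, the reverse of the order of Cxcl1 in scaled CPM. The median share over 4327 coding genes with such a transcript was 2.26, 4.89 and 1.85%, in the same order of libraries. The order of replicate 2 above 1 above 3 held in 2155 (49.8%) of those genes and in Cxcl1, Cxcl2 and Pf4. The Cxcl2 share exceeded that of 89.6, 93.8 and 82.4% of those genes, and the Cxcl1 share that of 78.5, 82.9 and 67.9%.

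The numerator and the denominator both moved. Retained-intron transcripts of Cxcl2 had 25.2, 45.5 and 23.7 CPM (estimated counts over all targets), and its coding transcripts 112, 84.5 and 206 CPM. For Cxcl1 the retained-intron transcript had 5.89, 6.20 and 4.24 CPM, and the coding transcript 28.6, 14.1 and 46.2 CPM. In CPM, replicate 3 had the most coding and the least retained-intron RNA of both genes, and replicate 2 the least coding and the most retained-intron RNA. For the Cxcl1 retained-intron transcript the CPM of replicates 1 and 2 were close and rested on 373 and 369 estimated counts. In TPM of the same tables the coding transcript of Cxcl1 was at 10.12, 3.45 and 10.04 TPM, so replicate 3 was not the highest on that scale. Its retained-intron transcript was at 0.919, 0.678 and 0.417 TPM, highest in replicate 1 and not in replicate 2. Replicate 2 was also the library with 1144 TPM of Malat1, and the part of nuclear RNA in these shares was not tested. Without replicate 2 the mean share was 14.0% for Cxcl2 and 6.16% for Cxcl1.

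The longest annotated retained-intron models of Cxcl1 and Cxcl2 are single exons over 99.8 and 99.9% of the gene, so a retained-intron transcript and unspliced RNA cannot be told apart. That model of Cxcl2 held 22.2, 41.9 and 21.3 CPM of the retained-intron values given for the gene, and 3.10, 4.10 and 1.88 TPM. The other retained-intron model of Cxcl2, with 2 exons and 397 bases, held 2.95, 3.65 and 2.38 CPM but 4.21, 3.37 and 1.87 TPM. On the TPM scale of the share, the short model was therefore above the long one in replicate 1 and below it in replicates 2 and 3.

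Among the other detected members, the retained-intron share of Cxcl10 was 3.35, 6.40 and 4.19%, that of Cxcl16 was 7.62, 17.1 and 7.96%, and that of Pf4 was 3.71, 6.89 and 2.81%. All 3 were highest in replicate 2, as the genome-wide median was. The Cxcl16 share exceeded that of 77.0, 83.7 and 80.4% of the 4327 genes, so a high share was not confined to Cxcl1 and Cxcl2 in these tables. The Cxcl10 share exceeded that of 59.2, 57.4 and 68.9%, and the Pf4 share that of 61.8, 59.5 and 60.0%. For Cxcl16 and Pf4 the value depended on the quantification: from the alignment-based tables Cxcl16 was at 2.25, 5.68 and 3.13% and Pf4 at 11.7, 8.22 and 15.3%, where replicate 2 was the lowest for Pf4. Those tables gave 13.9, 28.3 and 8.54% for Cxcl2 and 8.43, 15.8 and 3.81% for Cxcl1. Cxcl16 also has a transcript annotated for nonsense-mediated decay, with 405, 173 and 939 estimated counts, highest in replicate 3. For the 5 members below 1 TPM the shares rest on few counts and are not given.

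**Figure D4:**
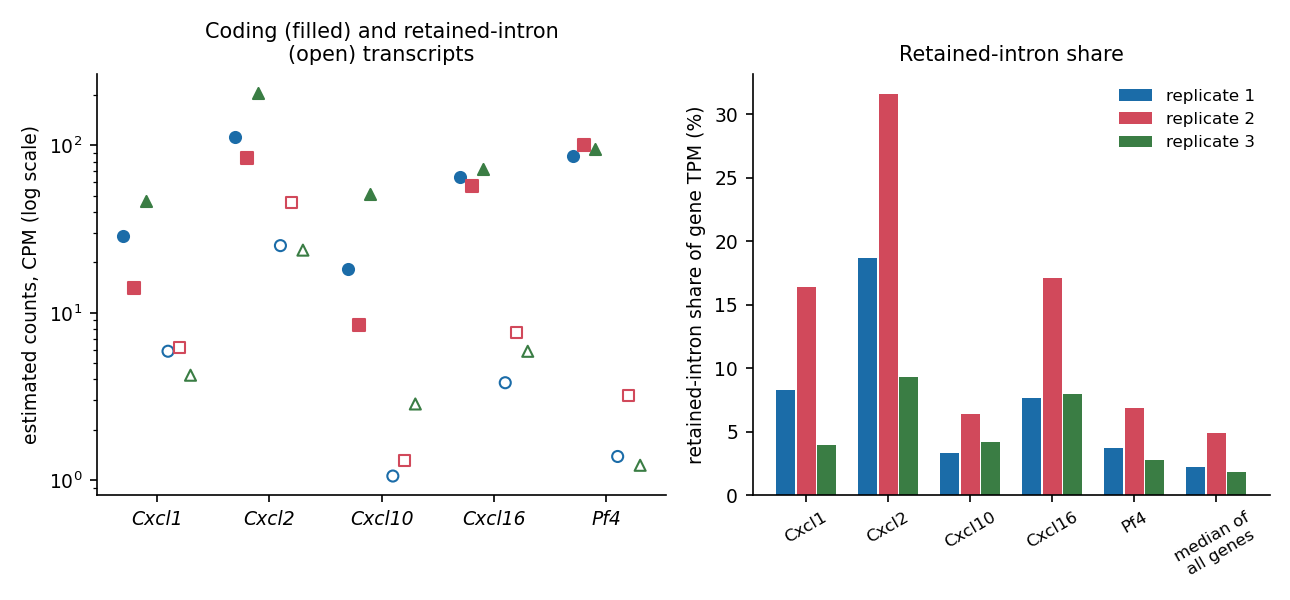
Left, estimated counts in CPM on coding (filled) and retained-intron (open) transcripts of 5 CXC members, log axis, from the tables made without alignment. Right, the retained-intron share of gene TPM in percent in the same libraries, with the median over 4327 coding genes, where replicate 2 is the highest for all 5 members and for the median.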

How the data were processed

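Gene and transcript levels in 3 libraries of a single group were read from tables the authors deposited. Per the file headers, the alignment-based tables have RSEM's columns, with expected counts and TPM, and the alignment-free tables have kallisto's, with estimated counts and TPM. In the deposited tables neither kind of count is normalized, and TPM has the same sum in each library. The accompanying text files give mm10 as the assembly and GENCODE M21 as the annotation. With tool versions and strandedness not given in the sources used here, genes that overlap on opposite strands are uncertain. Rows that name no gene held 0.186, 0.167 and 0.0395% of counts and were left out of library sizes.

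Levels are alignment-based gene TPM. Expected counts were rounded to whole numbers, filtered with filterByExpr (12744 genes) and given TMM factors by edgeR 4.0.16 under R 4.3.3. A prior count of 2 was used for log2 CPM. The common biological coefficient of variation was 15.2%. Pairs of libraries were compared for genes averaging 100 counts or more. Python 3.11.15, pandas 2.3.3, scipy 1.17.1 and matplotlib 3.10.9 did the remainder. A single group allows no test. Named genes were all members, the listed ligands, receptors and comparison genes, and the 3 nearest genes by pattern for each member of mean count 100 or more. The members and lists were chosen with earlier results of these data known. Alternatives were DESeq2 1.42.0 size factors, library size, other filters, prior counts and folds, the other quantification, rescaled TPM and each replicate left out.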

Additional observations from a re-analysis of the deposited data

How the results depend on the processing

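Over 25 results, 169 alternatives were computed, of which 135 stayed within a set limit and 34 moved further. The limit was the SD over the 3 libraries for levels and shares, and 1.5 times for a count. For SDs of log2 CPM it was the SD of the 3 values with a replicate left out. Leaving out 1 of 3 libraries cannot shift a mean beyond the SD over libraries. Those alternatives for levels and shares were bound to stay, so the 135 are no measure of stability. The 25 results are levels, SDs, shares and counts of genes, so none of them could turn in sign, and the order of libraries was not among them. The summed level of the 10 genes, 382 TPM as reported, was 1442 TPM when TPM was rescaled over protein-coding and long noncoding genes and 109 TPM in the alignment-free tables, and between 309 and 430 TPM without a replicate. The cause of the difference between the quantifications was not tested. In each alternative tried for detection, 5 genes passed. The median SD of log2 CPM, 0.475 as reported, was 0.335 to 0.518 without a replicate. It was 0.335 without replicate 2 and 0.349 without replicate 3, and 0.459 to 0.562 under the other scalings, prior counts, filters and counts except the mean count of 100 or more, which gave 0.400. The 2 members over 2-fold apart, Cxcl1 and Cxcl10, were 0 to 2 without a replicate: 1 (Cxcl10) without replicate 2 and 0 without replicate 3. A mean count of 20 or more gave 3 with Ppbp, and a fold of 1.5 gave 3 with Cxcl2. Without replicate 3 the SD was 0.0670 for Cxcl2, 0.00429 for Cxcl16 and 0.618 for Cxcl10, and without replicate 2 it was 0.0883 for Pf4 and 0.154 for Ppbp. The retained-intron share of Cxcl1, 9.59% of TPM, was 18.7% of estimated counts, since its retained-intron transcript is longer than the coding one, and 6.16 to 12.4% without a replicate. The share of Cxcl2, 19.9%, was 14.0 to 25.1% without a replicate. Counting all transcripts that are not protein-coding gave 31.4% for Cxcl16, against 10.9% for retained introns alone. Depth limits Cxcl3, Cxcl5, Cxcl9 and Cxcl11, with no more than 21 counts in any library. No paired analysis was possible because there is a single group.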

Other observations

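The stretch of chromosome 5 between the 2 CXC clusters holds the growth factor genes Epgn, Ereg, Areg and Btc, which encode ligands of the EGF receptor family and were looked up after seeing the data. Beside Cxcl2 at 7245 counts or more, in the alignment-based tables, Epgn had 0, 2 and 2 counts, Ereg 2, 0 and 0, Areg 6, 1 and 7, and Btc 2, 0 and 0. Mthfd2l, a mitochondrial folate enzyme gene that begins beyond Cxcl2, was at 1.48, 1.12 and 1.25 TPM. In these libraries none of the 4 growth factor genes reached 0.2 TPM.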
